A study of Homo sapiens with 12 samples.

Results

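Nuclear-encoded respiratory chain genes were examined in 2 rhabdomyosarcoma (RMS) cell lines with and without depletion of the histone demethylase KDM3A. Members were taken by name from the gene table: the NDUF genes of complex I, SDHA to SDHD of complex II, the UQCR genes of complex III, the COX4 to COX8 families of complex IV and the ATP5 genes of complex V, with a mean of at least 1 FPKM over all libraries and without entries named as pseudogenes (P followed by digits). This gave 79 genes of 65975 gene identifiers: 37 for complex I, 4 for complex II, 9 for complex III, 11 for complex IV and 18 for complex V. Of the lines, RD represents fusion-negative disease (FN-RMS), while Rh30 carries a fusion and represents FP-RMS. RD cells were grown in DMEM and Rh30 cells in RPMI, both with fetal bovine serum and pyruvate, so medium and line cannot be told apart in comparisons between the lines. Cells of each line were transduced with lentivirus carrying the Scrambled control shRNA (Scramble) or 1 shRNA against KDM3A (KDM3A-sh2) and selected with puromycin, with 3 libraries in each of the 4 groups. With 1 shRNA, depletion of KDM3A and any other effect of that shRNA cannot be told apart. Whether the 3 libraries of each group are separate cultures is not given in the sources used here, so p-values measure the spread between these libraries, which may be technical. In the deposited table the names of the 3 Rh30 Scramble libraries all end in 1, while those of each other group end in 1 to 3. Over members at 10 FPKM or more, the median coefficient of variation was 4.13% in Rh30 Scramble and 2.87 to 4.47% in the other groups. Pearson's r across genes was 0.9887 to 0.9888 between the Rh30 Scramble libraries and 0.9871 to 0.9887 within the other groups. These values cannot tell whether the 3 libraries are separate cultures.

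The respiratory chain sits in the inner membrane of mitochondria. Complexes I (NADH dehydrogenase) and II (succinate dehydrogenase) pass electrons to ubiquinone, complex III (the cytochrome bc1 complex) passes them on to cytochrome c, and complex IV (cytochrome c oxidase) to oxygen. Complexes I, III and IV pump protons, and complex V (ATP synthase) uses the proton gradient to make ATP. Most subunits are encoded in the nucleus, while a few core subunits of complexes I, III, IV and V are encoded by mitochondrial DNA and complex II is wholly nuclear. In muscle, some subunits of complex IV are exchanged for muscle forms. The name rule is not the same as the list of subunits. NDUFA4 is counted here with complex I by its name, although it is now placed in complex IV. ATP5S and ATP5SL carry ATP5 names but are not core subunits of the synthase, and UQCRHL and ATP5L2 are copies of UQCRH and ATP5L. COX4I1, CYC1 and NDUFAB1 have names that the rule does not take.

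The promoters of these genes are known for sites of the regulators NRF1, GABP (an ETS factor) and YY1. RefSeq promoter windows (GRCh38.p14, 250 bases before to 50 after each listed start) were matched to 62 of the 79 genes, with 74 windows in all. Each motif was searched on both strands as 8 letters. The NRF1 core CGCATGCG was found in 11 of the 74 windows (14.9%) and in 2.02% of the 35116 windows listed for all genes. The ETS/GABP letters CCGGAAGT were found in 11 windows (14.9%), against 4.14% of all windows, and the YY1 letters AAGATGGC in 13 (17.6%), against 2.89%. The list of all windows includes genes without measurable RNA. By gene, the shares were 17.7%, 17.7% and 19.4% of the 62 members and 4.41%, 9.80% and 6.34% of the 11007 genes with a listed promoter that were tested here over all 12 libraries. The 12 ETS/GABP and 11 NRF1 matches began before the start, while 10 of the 13 YY1 matches began after it, and no match overlapped one of another motif. A match is a description of letters and not a mapped site. In all, 30 members held at least 1 motif.

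Of the 10 members that changed the same way in both lines with KDM3A-sh2 (below), 8 had a listed promoter and 4 held a motif. Among all 62 members with a listed promoter, 30 held a motif, a similar share. A link between motif and change was not tested. The promoters of the 3 members with a match that began before the start are shown as examples. They run from 150 bases before the start to 10 bases after it, 5′ to 3′ on the gene's strand. Capitals mark the ETS/GABP letters (on either strand) in COX5B and ATP5H and the NRF1 core in NDUFA8. In the fourth gene, NDUFA7, the YY1 letters begin at base 15 after the start.
COX5B (chr2:97645912-97646071, + strand): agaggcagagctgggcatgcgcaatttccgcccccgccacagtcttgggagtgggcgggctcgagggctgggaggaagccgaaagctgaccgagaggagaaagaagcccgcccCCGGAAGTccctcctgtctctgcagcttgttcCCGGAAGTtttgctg
ATP5H (chr17:75046960-75047119, - strand): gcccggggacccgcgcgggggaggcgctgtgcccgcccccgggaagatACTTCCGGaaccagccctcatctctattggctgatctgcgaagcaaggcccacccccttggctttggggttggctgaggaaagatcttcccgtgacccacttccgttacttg
NDUFA8 (chr9:122159770-122159929, - strand): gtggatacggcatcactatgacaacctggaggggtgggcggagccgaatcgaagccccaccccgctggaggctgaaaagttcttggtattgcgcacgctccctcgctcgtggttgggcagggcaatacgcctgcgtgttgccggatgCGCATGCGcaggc
In COX5B the matches begin at bases -37 and -5, in ATP5H at base -102 and in NDUFA8 at base -3, counted from the RefSeq start.

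Expression was measured as FPKM, a read level scaled to the gene's length and to the size of the library, so that levels can be set side by side between genes. The libraries held 17473 to 17983 genes with at least 1 FPKM, and 2 libraries of the same group correlated across genes with Pearson's r of 0.987 to 0.989. The table holds no read counts, so the depth is unknown. The lowest values gave a relative depth of 1.05 to 1.19 in RD Scramble and 0.853 to 1.00 in RD KDM3A-sh2, and of 1.00 to 1.02 and 0.940 to 0.979 in the matching Rh30 groups. KDM3A itself was at 33.5 ± 2.50 FPKM in RD Scramble and 12.2 ± 1.09 FPKM in RD KDM3A-sh2, and at 29.7 ± 2.14 and 14.1 ± 1.15 FPKM in Rh30 (SD, n = 3 each). The muscle lineage genes MYOD1, MYOG, DES and CHRNA1 were between 107 and 1449 FPKM in every library. Of the other muscle lineage genes looked up, CHRNG was between 12.5 and 22.4 FPKM and MYF5 was under 0.1 FPKM in every library. The blood marker PTPRC and the epithelial marker CDH1 were also under 0.1 FPKM in every library. EPCAM, an epithelial marker, was between 0.329 and 7.13 FPKM, with means of 4.63 and 6.03 FPKM in Rh30 Scramble and KDM3A-sh2, and the endothelial markers PECAM1 and CDH5 reached 1.20 and 0.484 FPKM.

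The members were among the abundant transcripts. Their mean levels over the 12 libraries ran from 1.44 to 1311 FPKM with a median of 201, and 62 of the 79 were at 100 FPKM or more. Together they held 1.65 to 1.73% of the summed FPKM in RD libraries and 1.56 to 1.67% in Rh30 libraries. The median member of complex I was at 150 FPKM, of complex II at 120 FPKM, of complex III at 290 FPKM, of complex IV at 346 FPKM and of complex V at 349 FPKM. The highest member of each complex was NDUFS5 (607 FPKM), an accessory subunit of complex I, SDHB (262 FPKM), the iron-sulphur subunit of complex II, UQCRQ (435 FPKM), a small subunit of complex III, COX7C (750 FPKM) in complex IV and ATP5J2 (1311 FPKM), the f subunit of complex V. The lowest were NDUFV3 (26.2 FPKM), SDHA (59.0 FPKM), UQCRFS1 (48.3 FPKM), COX7A1 (1.44 FPKM) and ATP5S (11.4 FPKM). Just inside the limit of 1 FPKM were COX7A1 and COX6A2, and just outside it were COX8C (0.304 FPKM), COX6B2 (0.156 FPKM) and COX7B2 (0.0141 FPKM), all of complex IV.

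The summed FPKM of a complex moved little with KDM3A-sh2. In RD, complex I was at 7225 ± 33.0 FPKM in Scramble and 7306 ± 80.4 FPKM in KDM3A-sh2 libraries, and the libraries of the groups overlapped in complexes I, III, IV and V. Complex II stood apart, with sums of 549, 535 and 537 FPKM with Scramble and 599, 594 and 595 FPKM with KDM3A-sh2, a ratio of 1.10. In Rh30 the sum over all 79 genes was 20981 ± 232 FPKM in Scramble and 22263 ± 752 FPKM in KDM3A-sh2 libraries (SD, n = 3), a ratio of 1.06, and the groups did not overlap. There, complexes I, III and IV were higher in all 3 KDM3A-sh2 libraries, by ratios of 1.07, 1.04 and 1.08, while complexes II and V overlapped. Which sums stood apart depended on the scaling. As a share of the summed FPKM of each library (the TPM scale), complex I was also apart in RD, at 0.574 to 0.590% with Scramble and 0.602 to 0.605% with KDM3A-sh2, and so was the sum of all members, at 1.65 to 1.69% and 1.71 to 1.73%. On that scale complex III overlapped and complex V was apart (0.576 to 0.580% and 0.583 to 0.612%) in Rh30. KDM3A-sh2 replicate 3 of Rh30 had the lowest sum of its group in all 5 complexes. These sums are descriptions, since subunits of a complex are not replicates and an exact permutation test of 3 libraries against 3 cannot give a p below 0.1.

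**Figure D1:**
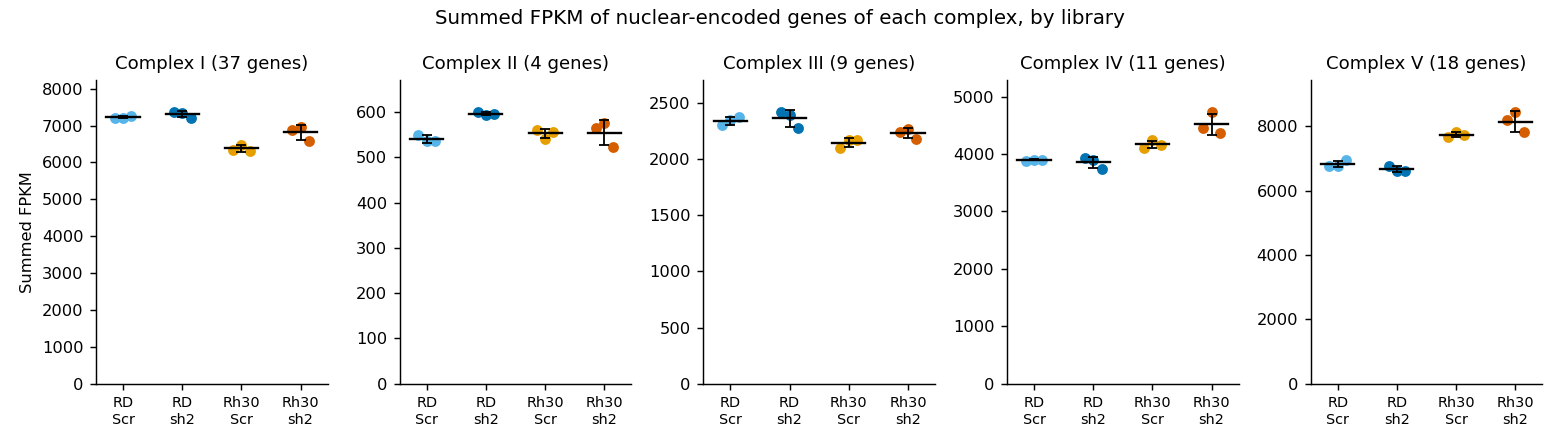
Summed FPKM of the nuclear-encoded genes of each complex in each of the 12 libraries (points), with the group mean (bar) and SD (whisker, n = 3), for RD and Rh30 cells with Scramble (Scr) or KDM3A-sh2 (sh2). In RD the sum of complex II is higher with KDM3A-sh2. In Scramble libraries complex V is higher and complex I lower in Rh30 than in RD.

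In RD, single genes moved in both directions. KDM3A-sh2 was compared with Scramble by limma on log2(FPKM + 1) with Benjamini-Hochberg adjustment over all genes tested and a threshold of 0.05. Of the 78 members tested, 19 rose and 15 fell, which is 43.6%, against 41.1% of all 17988 genes tested. The median change of the members was -0.01 on the log2 scale and that of all genes 0.01. By complex, 9 rose and 5 fell of the 37 of complex I, 2 of the 4 of complex II rose (the others are given below), 3 rose and 3 fell of the 9 of complex III, 2 rose and 2 fell of the 10 tested of complex IV, and 3 rose and 5 fell of the 18 of complex V. The 5 that fell in complex V include ATP5SL, which is there by its name only, and the copy ATP5L2. COX7A1 was too low in RD to be tested. In 20 members all 3 KDM3A-sh2 libraries lay above all 3 Scramble libraries and in 22 below, where 28.1% and 25.3% of all genes tested did so. The split depends on the scaling of the libraries. After all libraries were brought to a common FPKM total (the TPM scale), 22 members rose and 10 fell, and with the same upper quartile 12 rose and 15 fell. The split of all genes moved the same way. From 3879 rising and 3511 falling it went to 4236 and 2986 on the TPM scale, and to 3397 and 3731 with the same upper quartile.

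The changes were small. Among members that rose in RD, NDUFA5, an accessory subunit of the complex I arm that meets ubiquinone, was at 83.7, 83.5 and 79.8 FPKM with Scramble and 109, 105 and 109 FPKM with KDM3A-sh2. The groups lay apart, with a log2 change of 0.38 (standard error 0.04, adjusted p = 0.000329), the largest increase of a member in RD. Entries named as pseudogenes of NDUFA5 held 55.1% of its own level, and its increase still passed when they were added. NDUFV3, a small subunit of the part of complex I that takes up electrons from NADH, was at 21.8, 22.3 and 23.7 FPKM and rose to 28.7, 30.2 and 28.1 FPKM (log2 change 0.35, adjusted p = 0.00254). NDUFB5, an accessory subunit of the membrane arm, changed by 0.32 (adjusted p = 0.0135), from 94.9 ± 9.14 to 119 ± 5.89 FPKM. ATP5C1, the gamma subunit of the rotating stalk of ATP synthase, was at 152, 142 and 141 FPKM with Scramble and at 185, 170 and 181 FPKM with KDM3A-sh2 (log2 change 0.30, adjusted p = 0.00251).

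Among members that fell in RD, COX6C, a subunit of complex IV, had 777, 735 and 745 FPKM with Scramble and 653, 634 and 570 FPKM with KDM3A-sh2 (log2 change -0.28, adjusted p = 0.00633). In Rh30 it was at 458 ± 11.9 and 466 ± 37.8 FPKM (SD, n = 3 each), and the groups overlapped. The copies UQCRHL and ATP5L2 moved in RD beside the genes they resemble, and reads that fit both can be counted for either. UQCRHL fell by 0.24 and UQCRH, the hinge protein of complex III, by 0.19 (adjusted p = 0.00237 and 0.0411). ATP5L2 fell by 0.33 and ATP5L, the g subunit of complex V, by 0.24 (adjusted p = 0.00923 and 0.00215).

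In Rh30 the members leaned upwards. Of 78 tested, 16 rose and 3 fell, which is 24.4%, against 28.5% of all 17803 genes tested. The estimate was above 0 in 63 of the 78 members, with a median of 0.07 against 0.03 for all genes, of which 54.8% were above 0. Of all genes tested, 15.3% rose and 13.2% fell. Complex I had 8 members that rose and 2 that fell, complex II none by limma (none also at an unadjusted p under 0.05), complex III 1 that rose, complex IV 4 that rose and complex V 3 that rose and 1 that fell (ATP5SL, there by its name only). In 28 members all 3 KDM3A-sh2 libraries lay above all 3 Scramble libraries and in 3 they lay below, where 25.6% and 20.2% of all genes tested did so. The count of rising members fell when some single libraries were left out, which also leaves the test with fewer libraries. It was 6 without KDM3A-sh2 replicate 1, 7 without KDM3A-sh2 replicate 2 and 9 without Scramble replicate 1. The 3 falling members became 1 without Scramble replicate 2, Scramble replicate 3, KDM3A-sh2 replicate 1 or KDM3A-sh2 replicate 3.

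The largest increase in Rh30 was that of COX7A1 (described with the muscle forms). NDUFB1, an accessory subunit of the complex I membrane arm, was at 165, 198 and 196 FPKM with Scramble and 253, 285 and 238 FPKM with KDM3A-sh2, a log2 change of 0.47 (standard error 0.09, adjusted p = 0.0109). NDUFA7, another accessory subunit of complex I, went from 85.8, 90.7 and 79.4 FPKM to 122, 120 and 114 FPKM (log2 change 0.47, standard error 0.06, adjusted p = 0.00183). In both genes the lowest KDM3A-sh2 library stood above the highest Scramble library. The 3 members that fell were NDUFB3, ATP5SL and NDUFS1. NDUFS1, the largest iron-sulphur subunit of complex I, was at 85.3, 90.8 and 94.0 FPKM with Scramble and 81.2, 80.0 and 78.1 FPKM with KDM3A-sh2 (log2 change -0.17, adjusted p = 0.0324), and this call was lost in 9 of 17 other analyses.

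**Figure D2:**
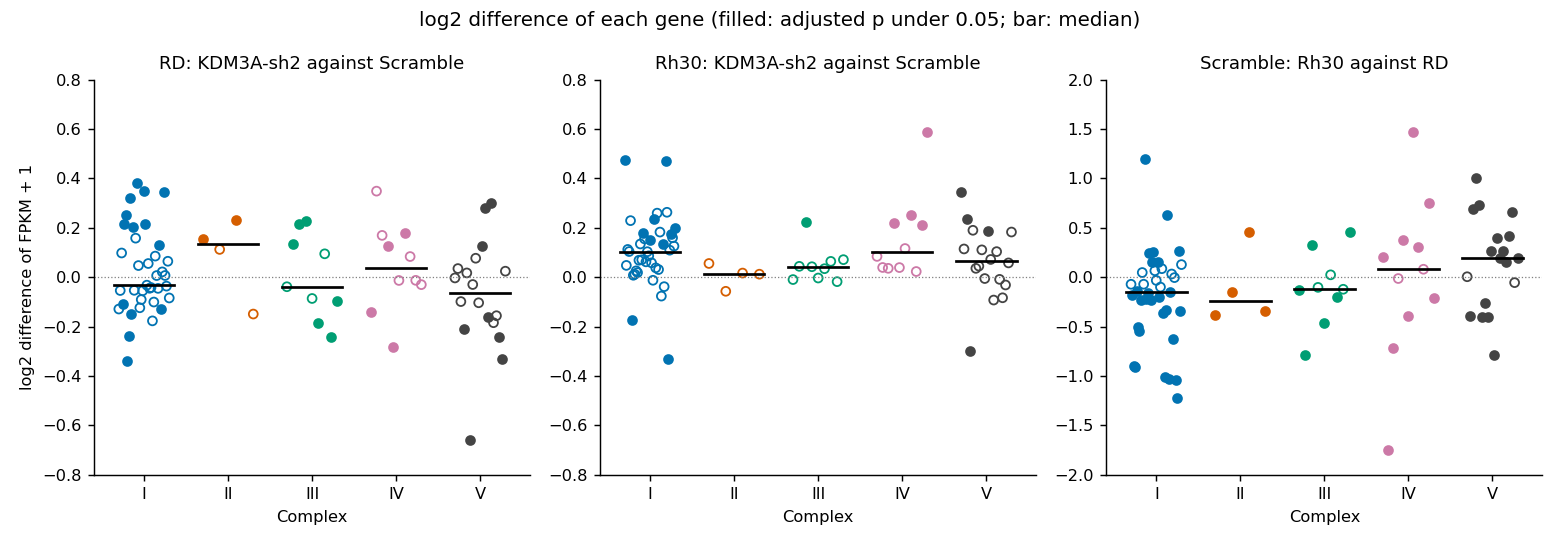
Log2 difference of FPKM + 1 for each member by complex: KDM3A-sh2 minus Scramble in RD and in Rh30, and Rh30 Scramble minus RD Scramble. Filled points passed an adjusted p of 0.05, open points did not, and bars are medians. In RD the points of each complex fall on both sides of 0, with 3 above and 1 below in complex II. In Rh30 63 of 78 lie above 0 (80.8%, against 54.8% of all genes). The panel on the right has a wider axis.

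Of the 77 members tested in both lines, 8 rose in both (10.4%, against 6.51% of the 15970 genes tested in both lines) and 2 fell in both (2.60%, against 6.84%). By limma none rose in one line and fell in the other, which 319 of all genes (2%) did one way and 252 (1.58%) the other way. At an unadjusted p under 0.05, 3 members did so (NDUFS4, NDUFS7 and ATP5G2, each falling in RD and rising in Rh30). The shares of all genes just given are for the adjusted p. A further 24 passed in RD alone (31.2%, against 25.2%), 8 in Rh30 alone (10.4%, against 12.4%) and 35 (45.5%, against 45.4%) in neither. Across the 77 genes, which share their libraries and are not independent replicates, Pearson's r between the log2 changes of the lines was 0.55 and Spearman's rho 0.42, and across all genes tested in both they were 0.32 and 0.33. Among the members that rose in both lines were NDUFA7, NDUFA8, NDUFB1 and NDUFB9 of complex I, UQCR10 of complex III, COX5B of complex IV and ATP5H of complex V. Those that fell in both were NDUFB3 and ATP5SL.

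**Figure D3:**
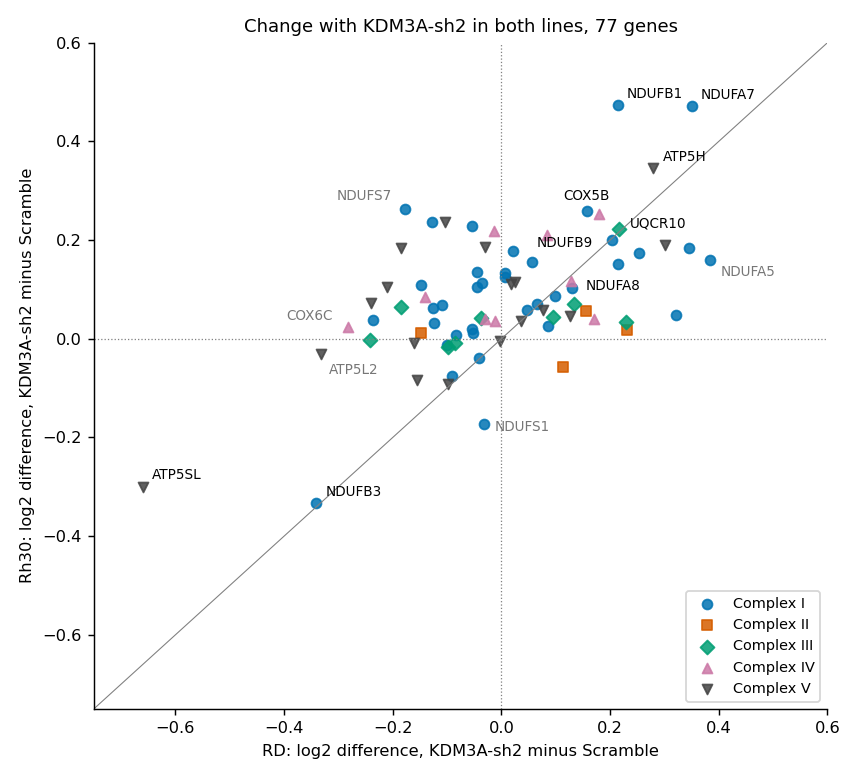
Log2 change with KDM3A-sh2 in RD (horizontal axis) and in Rh30 (vertical axis) of the 77 members tested in both lines, by complex. Black labels are 9 of the 10 members that passed in both lines, grey labels 5 others, and the diagonal marks equal change. No member that passed in both lines lies in the upper left or lower right of the plot. Of all genes tested in both lines, 2% and 1.58% passed with opposite directions.

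NDUFA7 (chr19:8308768-8321396, - strand) had 96.4, 92.7 and 93.6 FPKM in RD with Scramble and 115, 121 and 126 FPKM with KDM3A-sh2, a log2 change of 0.35 (adjusted p = 0.00103) beside the 0.47 in Rh30. NDUFB1 (chr14:92116122-92121917, - strand) was at 287 ± 5.05 and 333 ± 3.65 FPKM in RD (log2 change 0.21, adjusted p = 0.00133). ATP5H (chr17:75038863-75046985, - strand) encodes the d subunit of the stator stalk of ATP synthase and has the ETS/GABP letters shown above. Its levels were 334, 326 and 326 FPKM with Scramble and 411, 392 and 395 FPKM with KDM3A-sh2 in RD. In Rh30 they were 372, 379 and 378 FPKM with Scramble and 491, 507 and 442 FPKM with KDM3A-sh2. No library of one group reached the other, and the log2 changes were 0.28 and 0.35 (adjusted p = 0.000629 and 0.00462). Entries named as pseudogenes of ATP5H held 34.2% of its level.

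COX5B (chr2:97646040-97648383, + strand), a nuclear-encoded subunit of complex IV with 2 ETS/GABP matches, was at 183, 192 and 191 FPKM with Scramble and 218, 209 and 214 FPKM with KDM3A-sh2 in RD. In Rh30 it was at 146, 148 and 137 FPKM with Scramble and at 171 FPKM in each KDM3A-sh2 library. The log2 changes were 0.18 (adjusted p = 0.00577) and 0.25 (adjusted p = 0.0049). UQCR10 (chr22:29767369-29770413, + strand), a small subunit of complex III, was at 171 ± 1.70 FPKM in RD Scramble, 199 ± 2.65 FPKM in RD KDM3A-sh2, 157 ± 5.78 FPKM in Rh30 Scramble and 183 ± 1.34 FPKM in Rh30 KDM3A-sh2 (SD, n = 3). Both log2 changes were 0.22 (adjusted p = 0.00134 and 0.00612). NDUFA8, an accessory subunit with the NRF1 core at its start, changed by 0.21 and 0.15 in RD and Rh30 (adjusted p = 0.0114 and 0.0402). The Rh30 call of NDUFA8 was lost in 11 of 17 other analyses. NDUFB9 changed by 0.20 in each line (adjusted p = 0.00262 and 0.0218), and its Rh30 call was lost in 6 of 17 other analyses.

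NDUFB3 (chr2:201071433-201085750, + strand), an accessory subunit of the complex I membrane arm, fell in both lines. It was at 272, 259 and 272 FPKM with Scramble and 214, 212 and 207 FPKM with KDM3A-sh2 in RD, and at 125, 129 and 145 FPKM and 105, 117 and 93.7 FPKM in Rh30. The log2 changes were -0.34 (adjusted p = 0.000372) and -0.33 (adjusted p = 0.0358), and the Rh30 call was lost in 9 of 17 other analyses. ATP5SL (chr19:41431318-41440717, - strand), now known as DMAC2, takes part in building the membrane arm of complex I and is not a subunit of ATP synthase. It had the largest change of any member in RD. Its levels there were 120, 124 and 117 FPKM with Scramble and 75.7, 76.5 and 74.9 FPKM with KDM3A-sh2, a log2 change of -0.66 (standard error 0.04, adjusted p = 3.84e-05). It was the only member in RD to pass a further limit of a 1.5-fold change. In Rh30 it was at 144, 158 and 135 FPKM and 118, 116 and 119 FPKM, a log2 change of -0.30 (standard error 0.06, adjusted p = 0.0117).

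**Figure D4:**
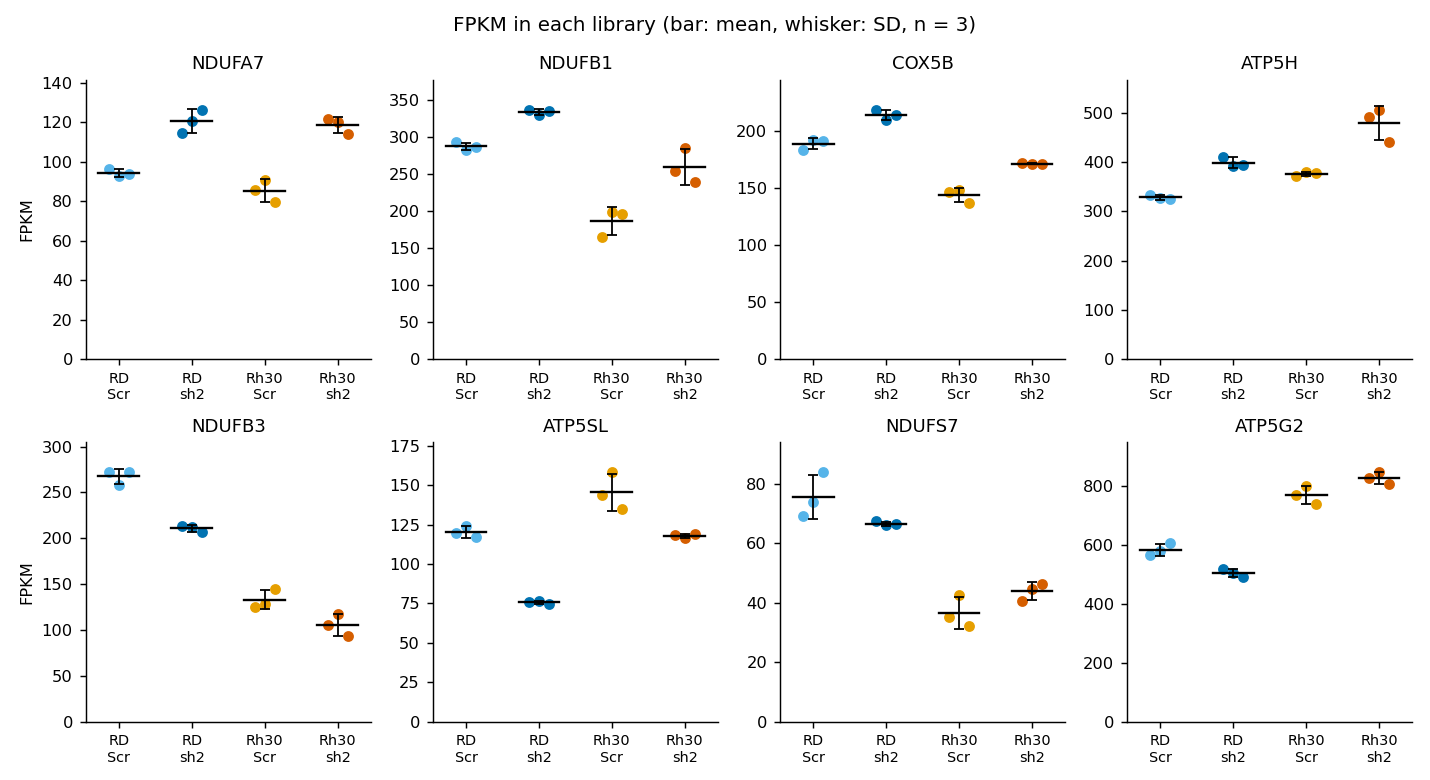
FPKM of 8 members in each library (points) with the mean (bar) and SD (whisker, n = 3), on axes that start at 0. NDUFA7, NDUFB1, COX5B and ATP5H are higher and NDUFB3 and ATP5SL lower with KDM3A-sh2 (sh2) than with Scramble (Scr) in both lines, while the KDM3A-sh2 mean of NDUFS7 and ATP5G2 lies below the Scramble mean in RD and above it in Rh30.

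The difference between the lines was tested as the interaction of shRNA and line over all 12 libraries. In 17 of 79 members the change in Rh30 was above that in RD and by limma in none was it below, which is 21.5%, against 27.8% of the 18517 genes tested (14.4% above and 13.4% below). At an unadjusted p under 0.05, 26 members were above and 5 below, against 39.0% of all genes in either direction. The split moved with the scaling: on the TPM scale 12 members were above and 6 below, and with each library centred on its median 12 and 3. That of all genes moved too, from 2665 above and 2486 below to 2079 and 3025, and to 2274 and 2766. The members' median stayed above that of all genes, by 0.056 as first tested and by 0.050 and 0.056 on these scales. The median difference was 0.08 for the members and 0.02 for all genes. By complex, the 17 were 5 of complex I, 2 of complex III, 3 of complex IV and 7 of complex V. The 7 include ATP5SL, which is there by its name only, and ATP5L2, the copy of ATP5L. NDUFS7, an iron-sulphur core subunit of complex I, differed most. In RD it was at 69.3, 73.8 and 83.9 FPKM with Scramble and 67.4, 66.1 and 66.4 FPKM with KDM3A-sh2, and in Rh30 at 35.1, 42.7 and 32.0 FPKM and 40.6, 44.8 and 46.4 FPKM. The groups lay apart in RD and overlapped in Rh30. The difference of the log2 changes was 0.44 (standard error 0.14, adjusted p = 0.0369), although the change passed in neither line alone (adjusted p = 0.0828 and 0.112), and the call was lost in 15 of 23 other analyses. ATP5D, the delta subunit of the central stalk of ATP synthase, differed by 0.37 (adjusted p = 0.0462) and was likewise lost in 15 of 23. NDUFS4, an accessory subunit needed for a stable complex I, was at 59.9, 55.7 and 57.8 FPKM and 54.8, 53.9 and 49.7 FPKM in RD, and at 66.9, 68.0 and 72.0 FPKM and 79.1, 85.4 and 79.8 FPKM in Rh30. Its log2 changes were -0.13 and 0.24 in RD and Rh30 (adjusted p = 0.0896 and 0.0132), and the difference of 0.37 (standard error 0.07, adjusted p = 0.00309) kept its call in 22 of 23 other analyses.

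Complex II has only 4 subunits, all nuclear. SDHB, the iron-sulphur subunit, was at 225, 203 and 208 FPKM with Scramble and 237, 247 and 264 FPKM with KDM3A-sh2 in RD (log2 change 0.23, adjusted p = 0.0145). SDHD, a membrane anchor, was at 93.7, 88.5 and 83.7 FPKM and 98.2, 102 and 95.9 FPKM (log2 change 0.16, adjusted p = 0.0466), a call lost in 10 of 17 other analyses. SDHC, the other anchor, changed by 0.11 (adjusted p = 0.12), and SDHA, the flavoprotein that oxidises succinate, by -0.15 (adjusted p = 0.0989), with overlapping groups in both genes. SDHA shared its name with pseudogene entries at 32.6% of its level, and with these added its change was -0.17 (adjusted p = 0.0388). In Rh30 the 4 changes were between -0.06 and 0.06 and none passed. The difference between the lines passed for none of the 4 genes by limma (2 did at an unadjusted p under 0.05), and for SDHB it was -0.21 (standard error 0.07, adjusted p = 0.0512).

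The forms of subunits that striated muscle uses were low in both lines. COX7A1, the muscle form, was at 0.0839, 0 and 0.0856 FPKM in RD with Scramble and 0.241, 0.496 and 0.279 FPKM with KDM3A-sh2. In Rh30 it was at 1.65, 2.56 and 1.66 FPKM with Scramble and 3.24, 3.75 and 3.23 FPKM with KDM3A-sh2, a log2 change of 0.59 on the log2(FPKM + 1) scale (standard error 0.15, adjusted p = 0.0289). That call was lost in 7 of the 16 other analyses that gave a value. COX7A2, the form found in most tissues, was at 682 ± 25.6 FPKM in RD Scramble and 676 ± 18.1 FPKM in Rh30 Scramble (SD, n = 3), and its log2 changes with KDM3A-sh2 were 0.13 and 0.12 (adjusted p = 0.0409 and 0.0547). The RD call of COX7A2 was lost in 10 of 17 other analyses. COX6A2, the muscle form of that subunit, showed the opposite line pattern. It was at 2.36, 4.10 and 2.81 FPKM in RD Scramble and 0, 0.315 and 0.320 FPKM in Rh30 Scramble, and with KDM3A-sh2 at 4.18, 2.99 and 5.54 FPKM in RD (log2 change 0.35, adjusted p = 0.255) and 0, 0.341 and 0 FPKM in Rh30. COX6A1, its widely expressed form, was at 320 ± 7.02 FPKM in RD Scramble and 276 ± 12.0 FPKM in Rh30 Scramble (SD, n = 3). COX6B1 and COX7B did not pass in either line (adjusted p = 0.0652 and 0.858 in RD, 0.651 and 0.595 in Rh30). Their testis forms COX6B2 and COX7B2 were below the limit of 1 FPKM.

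ATP5G1, ATP5G2 and ATP5G3 encode precursors of the same c subunit, which forms the rotating ring of ATP synthase. Their sum was 1563 ± 52.0 FPKM in RD Scramble, 1403 ± 26.1 FPKM in RD KDM3A-sh2, 1767 ± 43.9 FPKM in Rh30 Scramble and 1885 ± 47.4 FPKM in Rh30 KDM3A-sh2 (SD, n = 3 each). In RD, ATP5G2 fell from 566, 578 and 604 FPKM to 517, 504 and 489 FPKM (log2 change -0.21, adjusted p = 0.00416), and ATP5G3 from 697, 697 and 712 FPKM to 640, 622 and 620 FPKM (log2 change -0.16, adjusted p = 0.00404), while ATP5G1 changed by -0.03 (adjusted p = 0.723). In Rh30, ATP5G1 rose from 454, 485 and 450 FPKM to 528, 551 and 501 FPKM (log2 change 0.19, adjusted p = 0.0274), and ATP5G2 and ATP5G3 changed by 0.10 and -0.01 (adjusted p = 0.0913 and 0.836). The Rh30 call of ATP5G1 was lost in 7 of 17 other analyses. ATP5G2 and ATP5G3 were among the members whose change differed between the lines, by 0.31 (adjusted p = 0.0015) and 0.15 (adjusted p = 0.00558). The make-up of the sum also differed between the lines. ATP5G3 held 44.9 ± 0.939% of it in RD Scramble and 30.3 ± 1.07% in Rh30 Scramble, and ATP5G1 17.8 ± 0.907% and 26.2 ± 0.451%.

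**Figure D5:**
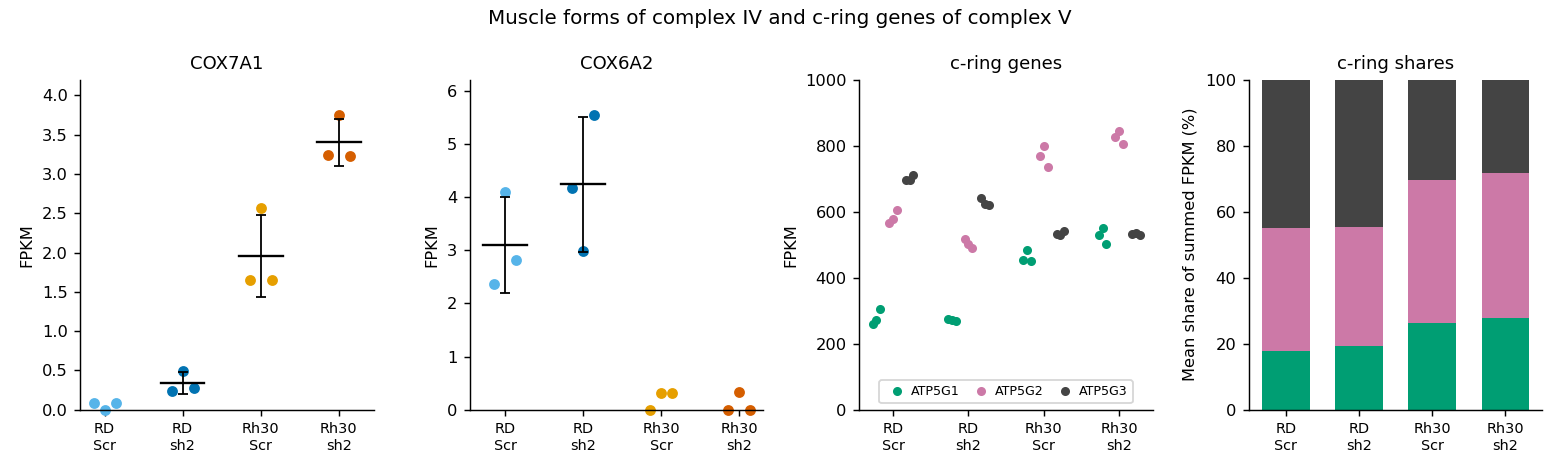
FPKM in each library of COX7A1 and COX6A2 (left panels, mean and SD for groups with no library at 0), of the c-ring genes ATP5G1, ATP5G2 and ATP5G3 (points by library), and the mean share of each c-ring gene in their summed FPKM (stacked bars). COX7A1 is higher in Rh30 and COX6A2 in RD, and ATP5G3 is the leading c-ring gene in RD and ATP5G2 in Rh30.

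The lines themselves differed far more than Scramble and KDM3A-sh2. Between Rh30 Scramble and RD Scramble, 26 members were higher in Rh30 and 36 lower, which is 78.5% of the 79, against 74.5% of all 18357 genes tested (35.0% higher and 39.6% lower). The groups did not overlap in 27 members higher in Rh30 and 38 lower, against 36.4% and 41.1% of all genes. The median was -0.07 for the members and -0.04 for all genes. Rescaling to the TPM scale shifted the median of all genes to -0.14 and that of the members to -0.19, and 19 members were then higher and 44 lower. With each library centred on its median, 28 were higher and 28 lower, and the medians turned to 0.0046 for the members and 0.037 for all genes. The complexes leaned in different directions. In complex I, 7 were higher and 20 lower of 37, with a median of -0.14, and in complex V 11 were higher and 5 lower of 18, with a median of 0.19. Complex II had 1 higher and 3 lower, complex III 2 and 4 of 9, and complex IV 5 and 4 of 11. The summed FPKM of complex I was 7225 ± 33.0 in RD Scramble and 6379 ± 82.8 in Rh30 Scramble, and that of complex V 6823 ± 101 and 7736 ± 74.7 (SD, n = 3), with no overlap. The sum over all complexes overlapped between the lines (ratio 1.01), but as a share of each library's summed FPKM it was lower in Rh30 without overlap (1.56 to 1.57%, against 1.65 to 1.69% in RD, ratio 0.933). On the TPM scale the log2 ratio of complex I was -0.29 and that of complex V 0.07, and that of complex IV turned from 0.10 to -0.01.

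NDUFA1, a membrane-arm subunit of complex I encoded on the X chromosome, was at 89.2, 83.6 and 86.2 FPKM in RD Scramble and 198, 203 and 198 FPKM in Rh30 Scramble, a log2 difference of 1.20 (standard error 0.04, adjusted p = 2.55e-07). ATP5E, the epsilon subunit of ATP synthase, was at 158 ± 3.98 and 318 ± 7.42 FPKM (SD, n = 3), a difference of 1.01 (adjusted p = 4.19e-07). Lower in Rh30 were NDUFB9, at 287, 278 and 281 FPKM in RD Scramble and 119, 124 and 117 FPKM in Rh30 Scramble (log2 difference -1.23, adjusted p = 2.03e-07), and NDUFC1, at 98.2 ± 1.96 and 47.2 ± 1.44 FPKM (SD, n = 3; -1.04, adjusted p = 7.13e-07). None of these groups overlapped. COX7A1 and COX6A2 differed by 1.47 and -1.75 on the log2(FPKM + 1) scale (adjusted p = 0.000122 and 0.000162). Members of a chromosome often lay on the side of its other genes, but on chromosomes 4, 6, 7, 11, 14 and 17 the 2 medians differed in sign. The 3 members on chromosome 8 (NDUFB9, UQCRB and COX6C) and the 5 on chromosome 2 were all lower in Rh30, with medians of -0.72 and -0.39. The median over all genes tested on these chromosomes was -0.50 and -0.26, and 61.3% and 50.8% of these genes were lower. Of the 6 members on chromosome 5, 4 were higher, with a median of 0.20 against 0.14 for all its genes, of which 42.4% were higher. On chromosome 7, 3 of 4 members were higher, with a median of 0.20 against -0.15 for all its genes, of which 26.5% were higher. The copy number of these chromosomes was not measured here, and its part in the differences was not tested.

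Genes that work with these complexes were counted in 6 lists written by function. Of all genes tested, 21.6% rose and 19.5% fell in RD, and 15.3% rose and 13.2% fell in Rh30. Of 45 assembly factors, 12 rose and 7 fell in RD (26.7% and 15.6%) and 16 rose and 3 fell in Rh30 (35.6% and 6.67%). COX14, a complex IV assembly factor, changed most in RD (0.60, adjusted p = 0.000284), and ECSIT, a complex I assembly factor, in Rh30 (0.54, adjusted p = 0.00294). Of 77 genes of the mitochondrial ribosome, 8 rose and 20 fell in RD (10.4% and 26.0%) and 21 rose and 9 fell in Rh30 (27.3% and 11.7%), with MRPL11 at -0.71 (adjusted p = 6.65e-05) in RD and MRPL41 at 0.46 (adjusted p = 0.0302) in Rh30. Of the 13 protein genes of mitochondrial DNA, 2 rose and 4 fell in RD and 3 rose and 2 fell in Rh30. MT-ND1, a core subunit of complex I, went from 11637 to 6282 FPKM in RD (log2 change -0.89, adjusted p = 0.000142), with a change of -0.33 (adjusted p = 0.00123) in Rh30. MT-ND2 changed by -0.48 in RD (adjusted p = 0.00141), and MT-ND6 by -0.81 in Rh30 (adjusted p = 0.0083). These transcripts come from polyA-selected RNA, and the libraries held 10.6 to 13.0% of their summed FPKM in them. Of 16 pyruvate and citrate cycle enzymes, 3 rose and 5 fell in RD and 2 rose and 4 fell in Rh30, with SUCLA2, a subunit of succinyl-CoA ligase, at -0.44 and -0.43 (adjusted p = 0.00255 and 0.00327). Of the subunits and carriers with other names, 1 rose and 1 fell of 8 in RD and 3 rose and none fell of 9 in Rh30, with COX7A2L, which joins complexes III and IV, at 0.35 (adjusted p = 0.000145) and 0.29 (adjusted p = 0.00382). Of the transcription regulators, 3 rose and 3 fell of 12 in RD and 1 rose and 2 fell of 11 in Rh30, with ESRRA, a nuclear receptor that acts on these genes, at -0.62 (adjusted p = 0.00312) and -0.35 (adjusted p = 0.0297).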

How the data were processed

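The authors aligned directional polyA RNA-seq reads (read length is given as 50 in the Methods and differently in the labels) to GRCh38 with GSNAP, used SAMtools and computed FPKM with Cufflinks. The annotation release and strand setting were not given in the sources used here. FPKM were used as deposited, per the file headers and Methods. An identifier listed more than once was represented by its highest entry. The value 999999999 was read as missing.

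Genes averaging 1 FPKM or more over the compared libraries were tested on log2(FPKM + 1) with limma 3.58.1 in R 4.3.3 (trend, two-sided, Benjamini-Hochberg over all genes tested, threshold 0.05): 6 libraries for each line and for the Scramble groups, 12 for the interaction. The fit was tested on simulated data. Counts were not used, since FPKM hide them. Positions come from GENCODE 29 (GRCh38), which holds all 79 members, and promoters from RefSeq (GRCh38.p14).

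Named members were for each line the 5 called members that rose most and the 5 that fell most, the 3 largest differences between the lines' changes and between the Scramble groups in each direction, the highest member of each complex, SDHA to SDHD, tissue forms, c-ring genes, members near the limit, and members called in both lines, of which 1 is not reported here. In each list of related genes, up to 2 genes per line, those called with the greatest change, could be named. The members and lists were chosen with earlier results of these data known. The alternatives were other pseudocounts, filters, scalings, tests, treatments of pseudogenes and repeated identifiers, a replicate block and leaving out each library.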

Additional observations from a re-analysis of the deposited data

Results flagged for a closer look

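The change with KDM3A-sh2 differed between Rh30 and RD in 17 members by a test of the interaction. This is 21.5% of the members, against 27.8% of all genes tested. In each of the 17 the change was higher in Rh30, but this depended on the scaling. On the TPM scale 12 members had a higher and 6 a lower change in Rh30. With each library centred on its median these were 12 and 3. The split of all genes moved as well, from 2665 higher and 2486 lower to 2079 and 3025, and to 2274 and 2766. The members' median stayed above that of all genes, by 0.056 as first tested and by 0.050 and 0.056 on these scales. For the 17, the log2 difference as first tested (Rh30 minus RD) was 0.44 for NDUFS7, 0.37 for ATP5D, 0.37 for NDUFS4, 0.36 for ATP5SL and 0.34 for ATP5I, the e subunit of ATP synthase. It was 0.31 for ATP5G2, 0.31 for ATP5L, 0.31 for COX6C, 0.30 for ATP5L2, 0.27 for NDUFS6, 0.26 for NDUFC1 and 0.25 for UQCRH. It was 0.24 for UQCRHL, 0.23 for COX8A, 0.23 for COX7C, 0.18 for NDUFA3 and 0.15 for ATP5G3. ATP5SL fell in both lines, and its difference is that of a smaller decrease in Rh30. In COX6C, NDUFC1, NDUFS6, UQCRH, UQCRHL, COX7C, ATP5G2, ATP5G3, ATP5L and ATP5L2 the decrease passed in RD and no change passed in Rh30. NDUFS4, COX8A and ATP5I rose in Rh30, and no change of theirs passed in RD. NDUFS7, ATP5D and NDUFA3 passed in neither line alone. The calls were unequally stable: in 23 other analyses, those of NDUFS7, ATP5D and NDUFA3 were lost in 15, those of UQCRH and COX8A in 10, that of ATP5L2 in 8 and that of COX6C in 4, and those of the other 10 in 1 or 2. With pseudogene entries added, NDUFA3 no longer passed (adjusted p = 0.0525) and NDUFB1 (adjusted p = 0.0291) and ATP5G1 (adjusted p = 0.0386) did. The relative depth moved with the groups, from 1.05 to 1.19 in RD Scramble to 0.853 to 1.00 in RD KDM3A-sh2, and its part in these differences was not tested.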

How the results depend on the processing

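In RD, the 19 rising members became 12 with upper quartile scaling, 11 with ANOVA on unlogged FPKM and 0 with a 1.5-fold limit (15 falling: 1), and leaving out 1 library gave 13 to 20 rising and 9 to 13 falling (9 without RD Scramble replicate 3). In Rh30, the 16 rising became 10 without a filter on low values, 7 with ANOVA and 1 with the 1.5-fold limit, and the 3 falling became 1, 0 and 0. Without 1 library, 6 to 16 rose and 1 to 2 fell. The 17 members with a higher change in Rh30 than in RD became 0 with the 1.5-fold limit, and 11 to 18 without 1 library (11 without RD Scramble replicate 3). Against 0 with a lower change, there were 1 with a filter of 10 FPKM, 6 on the TPM scale, 1 with upper quartile scaling, 3 with median centring, 1 with ANOVA and 0 to 2 without 1 library. Between the Scramble groups, the 1.5-fold limit left 8 higher and 11 lower of 26 and 36, and leaving out 1 library gave 23 to 26 and 32 to 36.

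The replicate numbers gave no sign of pairing: correlations of same-numbered deviations lay between -0.074 and 0.048, and those of differently numbered ones between -0.055 and 0.069. With 3 libraries per group this cannot show that the libraries were unpaired. With a replicate block, 15 members rose and 10 fell in RD, 11 rose and 1 fell in Rh30, and 14 differed upwards between the lines.

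Log2 ratios of summed FPKM moved on the TPM scale in RD to 0.050 (complex I), 0.18 (complex II) and 0.00078 (complex V), and between the Scramble groups to -0.29, -0.079, -0.24, -0.014 and 0.070 for complexes I to V. Without the highest member they were 0.079 for complex II in RD and -0.33, -0.23 and -0.050 between the Scramble groups for complexes II, III and IV. With pseudogenes added, complexes IV and V came to 0.14 and 0.22 there. For the genes named, 1546 of 1781 results of other analyses had the same call, 223 lost it, 12 gained it and none turned a called direction, and in 20 an uncalled estimate changed sign. The 1546 include results that were called in neither analysis, so they are not a measure of how often a call was kept.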

Other observations

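Of the 79 members, 37 had entries named as their pseudogenes, which were left out of the members. Single entries of this kind reached or passed the level of their gene. ATP5EP2 was listed at a mean of 381.9 FPKM over the 12 libraries and ATP5E at 245.2 FPKM. COX6A1P2 was listed at 305.7 FPKM beside 298.4 FPKM for COX6A1, and COX7CP1 at 327.3 FPKM beside 750.1 FPKM for COX7C. Between the lines, ATP5EP2 was at 235 ± 15.5 FPKM in RD Scramble and 526 ± 11.0 FPKM in Rh30 Scramble, and COX7CP1 at 209 ± 17.1 and 445 ± 69.1 FPKM (SD, n = 3 each). Reads that fit both a gene and its copy can be assigned to either, and which of them gave rise to these values was not tested. In 19 of the 79 members, such entries held more than 10% of the member's own level.

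The genes of the factors whose motifs were searched in the promoters were looked up after their values had been seen. GABPA, the DNA-binding subunit of GABP, was at 12.9, 11.4 and 10.8 FPKM with Scramble and 16.1, 15.3 and 16.9 FPKM with KDM3A-sh2 in RD (log2 change 0.43, adjusted p = 0.00481), and at 18.2 ± 1.43 and 21.6 ± 0.613 FPKM in Rh30 (SD, n = 3; log2 change 0.23, adjusted p = 0.043). NRF1 did not pass in either line (adjusted p = 0.0724 in RD and 0.538 in Rh30), with log2 changes of -0.35 and 0.06. The log2 changes of YY1 were -0.18 and -0.03 in RD and Rh30 (adjusted p = 0.00976 and 0.721).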
